A study of Mus musculus with 13 samples.

Results

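The expression of 5 genes of alternative end joining, Polq, Lig3, Xrcc1, Parp1 and Parp2, was examined in thymic lymphomas and thymus of the mouse. The members were taken by gene name from a table of 43629 genes, and all 5 passed the filter on low values (10 normalized counts or more in 3 or more libraries), as did 15872 genes in all. RNA sequencing of 13 libraries covered 5 lymphomas of Atm-/- mice (129S6/SvEv), 5 lymphomas of Rag2c/c p53-/- mice (mixed C57BL/6 and 129S6/SvEv) and 3 thymuses of wild type (WT) C57BL/6 mice. The Rag2c/c allele encodes a RAG2 protein that lacks its C terminus, and these mice also lack p53. Each library came from a single-cell suspension and from a different mouse, and no age is given. The WT libraries were re-used from another series, and their source label reads thymic lymphoma while their tissue label reads thymus. Strain and series go with the group, so genotype, strain, series and the step from thymus to tumor cannot be told apart in a comparison with WT thymus. The comparisons ask how far the levels of these end joining genes in each lymphoma type differ from thymus and from each other.

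Alternative end joining repairs DNA double-strand breaks without the Ku proteins and DNA ligase IV of the classical pathway. PARP1 and PARP2 bind broken DNA and build chains of poly(ADP-ribose) on themselves and on nearby proteins. XRCC1 is a scaffold without enzyme activity that is drawn to these chains and holds DNA ligase III, the product of Lig3, which seals the ends. Polq encodes DNA polymerase theta, which pairs short matching stretches of the resected ends and extends them. PARP1, PARP2, XRCC1 and DNA ligase III also serve the repair of single-strand breaks. In thymocytes, RAG-made breaks are normally joined by the classical pathway.

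Parp1, Parp2 and Xrcc1 were higher in both lymphoma types than in WT thymus, and for Polq and Lig3 no difference was detectable. With a cell-cycle score in the fit, only the call of Parp2 in Atm-/- lymphomas against WT was kept, and the others against WT were lost, as given below. Of the members, 3 of 5 were called higher in Atm-/- lymphomas, where 44.6% of all 15872 genes were called and 21% were called higher. Likewise, 3 of 5 were called higher in Rag2c/c p53-/- lymphomas, where 37.3% of all genes were called and 17.5% were called higher. Only Parp2 was called between the lymphoma types (1 of 5, beside 11.6% of all genes called and 5.13% called higher in Atm-/- lymphomas). A call is an adjusted p below 0.05 in limma's moderated test on log2(normalized count + 1), adjusted by Benjamini and Hochberg over all genes tested. In both comparisons with WT the groups did not overlap for 3 of 5 members, all of them higher in lymphomas. Over all genes the groups did not overlap for 51.3% in Atm-/- lymphomas (23.4% higher) and for 43.9% in Rag2c/c p53-/- lymphomas (19.7% higher). The lymphoma types overlapped for all 5 members, beside 8.33% of all genes without overlap (3.85% of all genes without overlap and higher in Atm-/- lymphomas). No member was called lower in Atm-/- than in Rag2c/c p53-/- lymphomas, where 6.48% of all genes were. When a log2 difference of at least 1 was also required, 1 of 5 members, Parp2, was called in Atm-/- lymphomas against WT (29.9% of all genes, 12.7% higher) and 0 of 5 in Rag2c/c p53-/- lymphomas (23.8% of all genes, 9.92% higher). Parp2 was called by that rule between the lymphoma types as well (8.05% of all genes, 3.56% higher). With only 5 genes, these counts are a description. The median difference of the members from WT thymus was 0.69 on the log2 scale for Atm-/- lymphomas and 0.63 for Rag2c/c p53-/- lymphomas, beside medians of -0.019 and -0.018 over all genes. The comparisons with WT share the same 3 thymuses, so they are not independent of each other.

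**Figure D1:**
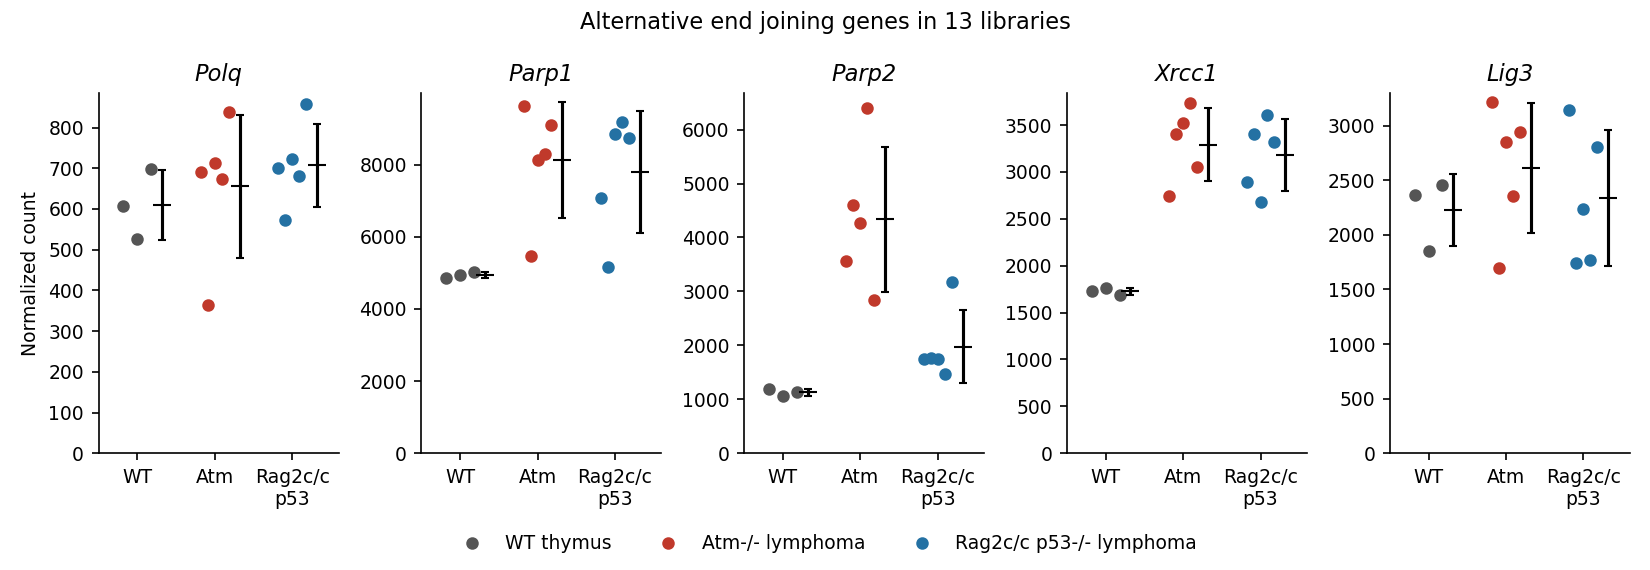
Normalized counts (vertical axes, linear and starting at 0) of the 5 genes in the 3 WT thymuses (grey), 5 Atm-/- lymphomas (red) and 5 Rag2c/c p53-/- lymphomas (blue). Points are libraries and the bar beside them is the mean with the SD. Every lymphoma lies above every WT thymus for Parp1, Parp2 and Xrcc1, and the groups overlap for Polq and Lig3.

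The promoter sequences are shown for the members that share a motif, the E box CACGTG, since Parp1 and Parp2 rose while Lig3 did not pass the test. All 5 members matched the RefSeq promoter windows of GRCm38.p6, which span 250 bases before and 50 after a gene's start. The stretches printed end before the first start annotated in RefSeq or GENCODE, and capitals mark the E box.
Parp1 (chr1:180568641-180568890, plus strand): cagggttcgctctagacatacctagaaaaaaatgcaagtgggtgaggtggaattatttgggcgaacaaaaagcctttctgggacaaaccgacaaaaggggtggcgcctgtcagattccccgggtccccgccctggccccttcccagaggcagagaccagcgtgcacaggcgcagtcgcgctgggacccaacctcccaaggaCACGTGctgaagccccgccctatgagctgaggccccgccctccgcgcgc
Parp2 (chr14:50807666-50807840, plus strand): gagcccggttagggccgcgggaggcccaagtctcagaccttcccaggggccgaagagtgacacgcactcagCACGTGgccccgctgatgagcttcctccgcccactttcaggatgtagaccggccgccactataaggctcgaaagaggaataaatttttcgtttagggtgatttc
Lig3 (chr11:82780859-82781107, plus strand): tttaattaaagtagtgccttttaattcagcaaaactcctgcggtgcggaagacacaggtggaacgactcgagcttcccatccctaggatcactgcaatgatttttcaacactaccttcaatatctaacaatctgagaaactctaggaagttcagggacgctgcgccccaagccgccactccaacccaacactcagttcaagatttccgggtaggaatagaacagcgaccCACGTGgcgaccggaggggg

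Counted back from the RefSeq start, the first letter of the E box was at base -49 in Parp1, -179 in Parp2 and -21 in Lig3. The E box stood in the windows of 3 of 5 members, in 7.15% of all 32851 promoter windows and in 9.59% of the 13429 windows of genes tested here. In these windows it did not separate the members that were called from those that were not, since that of Lig3 holds it and that of Xrcc1 does not. The Xrcc1 window lies after the first annotated start of that gene (24546289), with its CCAAT match at 24546612. Bases before that first start were not searched. The E box of Parp2 also lies within the annotated span of Rpph1 on the opposite strand (chromosome 14, 50807449 to 50807767), the RNA subunit of ribonuclease P. The GC box GGGCGG stood on either strand in the windows of 3 of 5 members, Parp1, Parp2 and Lig3, and in 59.6% of the windows of tested genes. Among the other motifs of the 9 searched on both strands, TTTGAA (12.2% of the windows of tested genes) and GGCGGGAA (3.78%) stood in Polq, CCAAT (37.2%) in Xrcc1 and TGACGTC (5.07%) in Parp2. A match describes the letters only and is not evidence of binding. TTTCGCGC, CCGGAAGT and the core motif of NRF1 were in the windows of none of the 5 members.

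Depth bears on every value below. The table gives normalized counts with similar totals per library (19788898 to 21591289), so reads had to be estimated from the steps of low values. This gave an estimated 6354366 to 34224936 reads per library, with a median of 13737676, for the 11 libraries in which a step could be resolved, and 2 could not be resolved. In these libraries the member with the fewest reads was Polq, with an estimated 160 to 1179 reads, and its largest counting error was 7.92%. Parp1 rested on 1517 reads or more and had a counting error of at most 2.57%. WT thymus 2, Atm-/- lymphoma 2 and Rag2c/c p53-/- lymphoma 2 stood apart together. They had the fewest reads of the 11 libraries and the fewest genes above 0 of all 13 (17710, 18026 and 17325), the highest summed T lineage markers of their groups, and the lowest Polq and Lig3 of their groups. Results are therefore also given without these 3 libraries, a choice made after seeing the data, and their part in the differences was not tested beyond that. The spread between lymphomas was larger than the counting error for all 5 members, with coefficients of variation between 11.9% and 34.5%.

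Levels of different genes were compared per kilobase of annotated exons, in normalized counts per kb. In WT thymus Parp1 was the most abundant member, at 934 ± 15.3 (SD, n = 3). Parp2 at 311 ± 17.4, Lig3 at 306 ± 44.8 and Xrcc1 at 296 ± 6.91 (SD, n = 3) did not differ beyond their spread, and Polq was lowest at 63.1 ± 8.88 (SD, n = 3). In Atm-/- lymphomas Parp2 reached 1195 ± 369 (SD, n = 5) per kb, beside 1535 ± 303 for Parp1, and the ranges of these genes overlapped. Xrcc1 followed there at 564 ± 67.4, Lig3 at 359 ± 82.3 and Polq at 67.7 ± 18.1 (SD, n = 5). In Rag2c/c p53-/- lymphomas Parp1 stood at 1473 ± 318 (SD, n = 5) per kb, and its lowest library was above the highest library of every other member. Parp2 at 545 ± 188 and Xrcc1 at 545 ± 65.4 (SD, n = 5) had the same mean per kb there, and Lig3 at 321 ± 86.0 overlapped the lowest values of Parp2. Polq was the lowest member in every group, at 73.1 ± 10.6 (SD, n = 5) per kb in Rag2c/c p53-/- lymphomas.

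Parp1 (ENSMUSG00000026496, GRCm38 chromosome 1 from 180568924 to 180601254, plus strand), the main poly(ADP-ribose) polymerase of the nucleus, had normalized counts of 4868, 4928 and 5028 in the WT thymuses. In the Atm-/- lymphomas the normalized counts were 9612, 5462, 8130, 8305 and 9110. In the Rag2c/c p53-/- lymphomas they were 7067, 5161, 8847, 9177 and 8725. All 10 lymphomas were above all 3 thymuses, and lymphoma 2 of each genotype, among the libraries with the fewest reads, lay closest to them. The difference from WT was 0.69 ± 0.21 (log2, SE, 1.61-fold, 95% interval 1.18 to 2.21) in Atm-/- lymphomas, with an adjusted p of 0.0171 in limma. For Rag2c/c p53-/- lymphomas it was 0.63 ± 0.21 (1.54-fold, 95% interval 1.13 to 2.11, adjusted p = 0.0317 in limma). The lymphoma types differed by 0.064 on the log2 scale (95% interval -0.33 to 0.46, adjusted p = 0.867 in limma), and the groups overlapped. The exact two-sided permutation test gave p = 0.0357 in both comparisons with WT, the smallest p that 5 against 3 libraries allow. The call against WT was lost for Rag2c/c p53-/- lymphomas when any of 6 single libraries was left out (adjusted p up to 0.0943), and for Atm-/- lymphomas without WT thymus 1 or 3 (adjusted p = 0.0572 and 0.0518). With the cell-cycle score described below both calls were lost, at log2 differences of 0.13 (adjusted p = 0.825 in limma) and 0.090 (adjusted p = 0.888 in limma). Without trend and robust moderation the call in Rag2c/c p53-/- lymphomas was lost as well (adjusted p = 0.0506 in limma). Without the 3 libraries numbered 2 the differences were 0.83 and 0.77 (adjusted p = 0.00117 and 0.00257 in limma).

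Parp2 (ENSMUSG00000036023, chromosome 14 from 50807946 to 50821300, plus strand), the second DNA-dependent poly(ADP-ribose) polymerase, had normalized counts of 1183, 1059 and 1143 in the WT thymuses. The Atm-/- lymphomas had 3569, 4599, 4265, 6402 and 2837. The Rag2c/c p53-/- lymphomas had 1743, 1760, 1747, 1462 and 3180. Every lymphoma was above every thymus, and among the lymphomas 4 of the 5 Atm-/- libraries were above all Rag2c/c p53-/- libraries. Parp2 was 3.70-fold higher in Atm-/- lymphomas than in WT thymus (log2 difference 1.89 ± 0.26 SE, 95% interval of the fold 2.51 to 5.47, adjusted p = 0.000114 in limma). In Rag2c/c p53-/- lymphomas the log2 difference was 0.75 ± 0.26 (1.69-fold, 95% interval 1.14 to 2.49, adjusted p = 0.0368 in limma). That call was lost without any 1 of the 3 WT thymuses (adjusted p = 0.0854, 0.108 and 0.0964) and without Rag2c/c p53-/- lymphoma 5, where the log2 difference was 0.57 (adjusted p = 0.0662). It was also lost without the 3 libraries numbered 2 (0.74, adjusted p = 0.122 in limma), without trend and robust moderation (adjusted p = 0.0557 in limma) and with the cell-cycle score (0.88, adjusted p = 0.271 in limma). Parp2 was 2.20-fold higher in Atm-/- than in Rag2c/c p53-/- lymphomas (log2 difference 1.13 ± 0.23, 95% interval of the fold 1.57 to 3.08, adjusted p = 0.0064 in limma, exact two-sided permutation p = 0.0159). Parp2 lies on chromosome 14 and moved together with its neighbours there, as described below.

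Xrcc1 (ENSMUSG00000051768, chromosome 7 from 24547150 to 24573438, plus strand), the scaffold of DNA ligase III, had normalized counts of 1732, 1764 and 1684 in the WT thymuses. The Atm-/- lymphomas had 2745, 3407, 3518, 3734 and 3051. The Rag2c/c p53-/- lymphomas had 2891, 3408, 2682, 3605 and 3314. The lymphoma types covered nearly the same range, and neither overlapped WT thymus. The log2 difference from WT was 0.92 ± 0.14 (1.89-fold, 95% interval 1.54 to 2.33, adjusted p = 0.000205 in limma) in Atm-/- lymphomas. It was 0.87 ± 0.14 (1.83-fold, 95% interval 1.49 to 2.25, adjusted p = 0.00043 in limma) in Rag2c/c p53-/- lymphomas. Xrcc1 differed between the lymphoma types by 0.050 (95% interval -0.21 to 0.31, adjusted p = 0.843 in limma). Both calls against WT were kept with any of the 13 libraries left out, with an adjusted p of at most 0.00465, and both were lost with the cell-cycle score (adjusted p = 0.0699 and 0.0972 in limma). Of the members, Xrcc1 varied least among Atm-/- lymphomas.

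Lig3 (ENSMUSG00000020697, chromosome 11 from 82781108 to 82804274, plus strand), the ligase that XRCC1 holds, had normalized counts of 2369, 1855 and 2461 in the WT thymuses. The Atm-/- lymphomas had 3219, 1699, 2852, 2354 and 2943. The Rag2c/c p53-/- lymphomas had 3148, 1739, 2233, 1767 and 2805. Each lymphoma type had libraries above and below the range of the thymuses. The log2 difference from WT was 0.21 (95% interval -0.31 to 0.72, adjusted p = 0.501 in limma) for Atm-/- and 0.039 (95% interval -0.48 to 0.56, adjusted p = 0.911 in limma) in Rag2c/c p53-/- lymphomas. These intervals include a rise of up to 1.65-fold and 1.47-fold. Atm-/- and Rag2c/c p53-/- lymphomas differed by 0.17 (log2, 95% interval -0.28 to 0.61, adjusted p = 0.669 in limma). The last 1826 bases of Lig3 overlap Rffl on the opposite strand, whose mean normalized count was 434 in WT thymus, 459 in Atm-/- lymphomas and 282 in Rag2c/c p53-/- lymphomas. The strand setting of the read counting is not given in the sources used here, so a share of Rffl reads in the Lig3 value was not tested.

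Polq (ENSMUSG00000034206, chromosome 16 from 37011786 to 37095417, plus strand), the polymerase that defines the theta-mediated branch of the pathway, had normalized counts of 608, 526 and 698 in the WT thymuses. The Atm-/- lymphomas had 690, 365, 712, 673 and 839. The Rag2c/c p53-/- lymphomas had 701, 574, 724, 680 and 859. The groups overlapped, and Atm-/- lymphoma 2, among the libraries with the fewest reads, was the lowest of all 13. Without the 3 libraries numbered 2 the log2 differences of Polq from WT were 0.16 and 0.18 (adjusted p = 0.444 and 0.406 in limma). The log2 difference from WT was 0.060 (95% interval -0.45 to 0.58, adjusted p = 0.854 in limma) for Atm-/- and 0.21 (95% interval -0.31 to 0.73, adjusted p = 0.515 in limma) in Rag2c/c p53-/- lymphomas. Changes of up to about 1.49-fold and 1.65-fold upward lie within these intervals. Between the lymphoma types the log2 difference was -0.15 (95% interval -0.60 to 0.30, adjusted p = 0.705 in limma).

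The members lie on 5 different chromosomes, and position was not used to choose them. Parp2 and its neighbours are given in detail, a choice made after their values were seen. The 13 tested genes that start within 1 Mb of Parp2 had a median log2 difference of 1.14 between Atm-/- lymphomas and WT thymus, and 8 of the 13 were called higher. Between Atm-/- and Rag2c/c p53-/- lymphomas their median was 1.29, all 13 were above 0 and 9 were called higher. Against WT thymus, Rag2c/c p53-/- lymphomas had a neighbour median of 0.22, with 2 of 13 called higher and 2 called lower. The median over the 634 other tested genes of chromosome 14 was -0.38, -0.047 and -0.42 in the comparisons of Atm-/- with WT, Rag2c/c p53-/- with WT and Atm-/- with Rag2c/c p53-/-. Of these neighbours, Apex1 encodes the main endonuclease that cuts at abasic sites. Its log2 difference was 2.59 (adjusted p = 8.22e-05 in limma) in Atm-/- and 1.18 (adjusted p = 0.0164 in limma) in Rag2c/c p53-/- lymphomas against WT. Osgep, 98.5 kb from Parp2, is a subunit of the complex that modifies tRNA, and had log2 differences of 1.604 and 0.39 in the same comparisons. The neighbours of the other 4 members had median log2 differences between -0.27 and 0.098 in Atm-/- lymphomas and between -0.46 and 0.21 in Rag2c/c p53-/- lymphomas against WT.

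Parp2 and its neighbours were also compared library by library. The neighbour median was 0.93, 1.75, 1.21, 1.63 and 0.45 (log2, above the WT mean) in Atm-/- lymphomas 1 to 5, where Parp2 was at 1.66, 2.03, 1.92, 2.50 and 1.33. In Rag2c/c p53-/- lymphomas 1 to 5 the neighbours were at 0.13, 0.35, 0.018, 0.10 and 0.92, and Parp2 at 0.63, 0.64, 0.63, 0.37 and 1.496. Rag2c/c p53-/- lymphoma 5, whose Parp2 value stood apart from its group, was the one with the highest neighbours in its group. Atm-/- lymphoma 5 was the lowest of its group in both measures, while the highest was lymphoma 4 for Parp2 and lymphoma 2 for the neighbours. Parp2 exceeded its neighbours in all 10 lymphomas, by 0.27 to 0.88 on the log2 scale. With the neighbour median subtracted in the same limma fit, a calculation chosen after seeing the data, the difference of Parp2 from WT was 0.69 (95% interval 0.36 to 1.02, adjusted p = 0.00296) in Atm-/- lymphomas. In Rag2c/c p53-/- lymphomas it was 0.45 (95% interval 0.11 to 0.78, adjusted p = 0.0358 in limma). Between the lymphoma types it was 0.24 (95% interval -0.043 to 0.53, adjusted p = 0.272 in limma), and the call was lost. Xrcc1 and Parp1 kept their calls against WT with this subtraction, with log2 differences of 1.295 and 0.77 in Atm-/- lymphomas and of 1.32 and 0.80 in Rag2c/c p53-/- lymphomas.

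**Figure D2:**
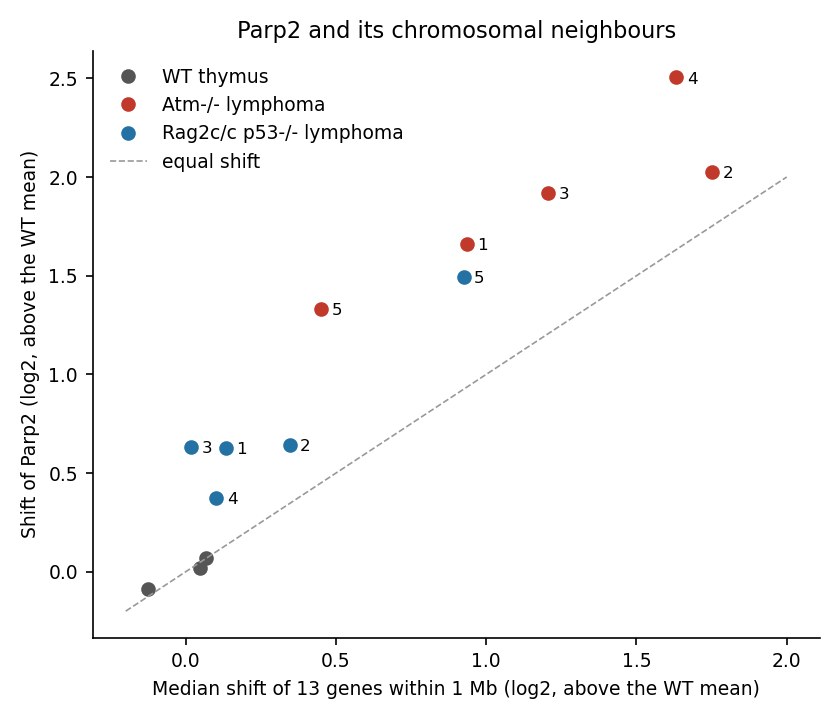
Shift of Parp2 (vertical axis) against the median shift of the 13 tested genes within 1 Mb (horizontal axis), both in log2 above the mean of the WT thymuses, 1 point per library with the lymphoma number beside it. The dashed line marks equal shifts. All 10 lymphomas lie above the line, and Rag2c/c p53-/- lymphoma 5 lies among the Atm-/- lymphomas.

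The raised stretch around Parp2 ended near the T cell receptor alpha and delta locus, a window chosen after the values were seen. The 178 segments of this locus listed in the table span 1.62 to 3.42 Mb after the start of Parp2 and were left out of the following medians. From 10 Mb before Parp2 to the first segment, 73 genes had a median log2 difference of 1.26 between Atm-/- lymphomas and WT thymus, and 42 were called higher and 7 lower. From the last segment to 10 Mb after Parp2, 101 genes had a median of -0.51, and 8 were called higher and 37 lower. Between Atm-/- and Rag2c/c p53-/- lymphomas the medians before and after the locus were 1.17 and -0.56, with 42 of 73 genes called higher before it and 19 of 101 called lower after it. Rag2c/c p53-/- lymphomas differed from WT thymus by medians of 0.13 and -0.013 in the same stretches. The number of DNA copies was not measured in these libraries, and its part in the level of Parp2 was not tested.

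**Figure D3:**
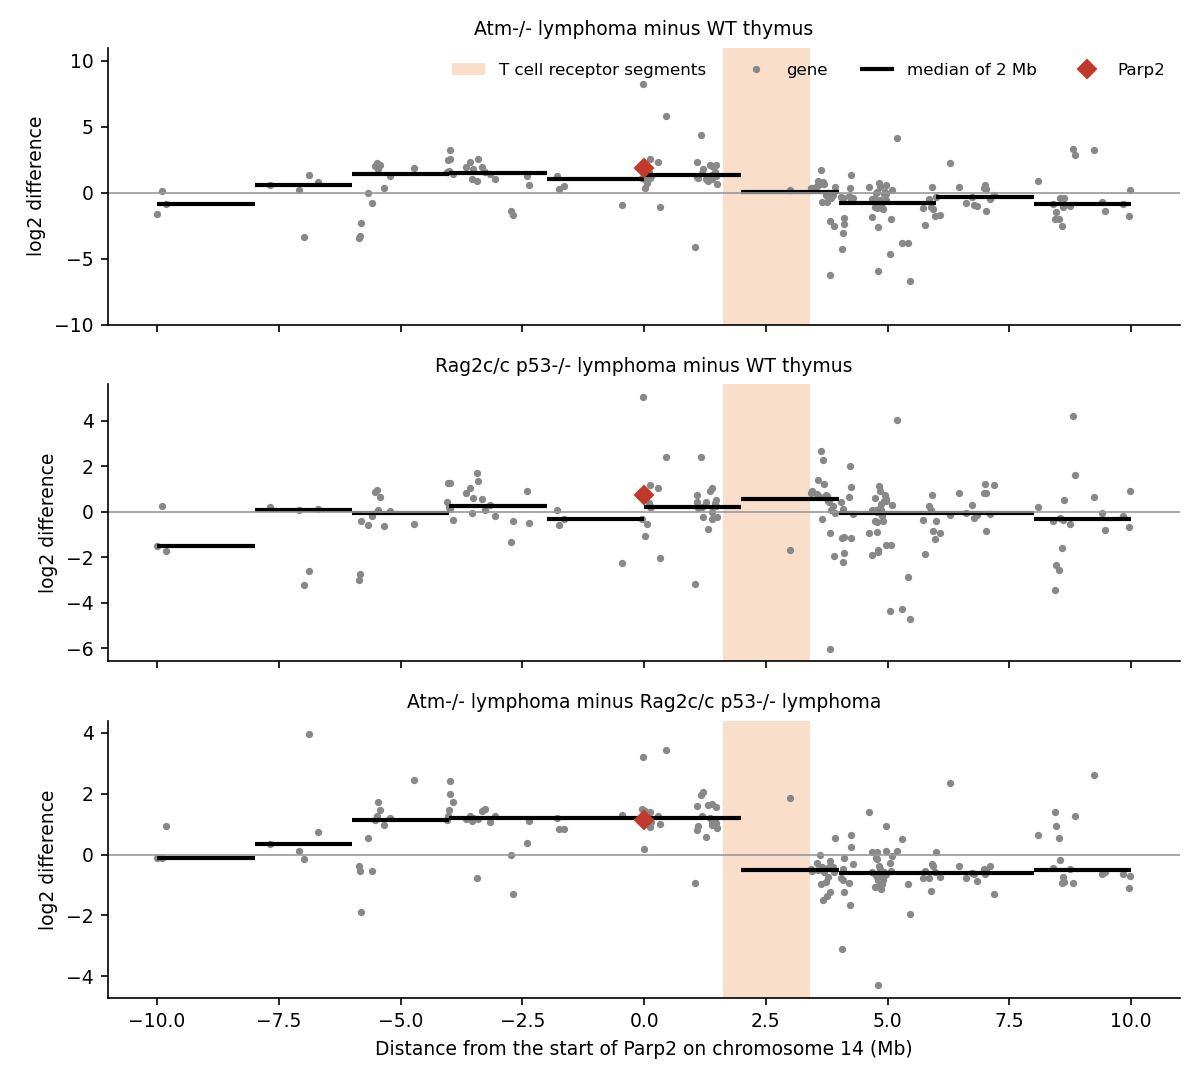
Log2 differences of tested genes of chromosome 14 (grey points) by distance in Mb from the start of Parp2 (red diamond), in the 3 comparisons. Black lines are medians of 2 Mb without the T cell receptor segments, whose span is shaded. In the comparisons that involve Atm-/- lymphomas, medians are above 0 from 8 Mb before Parp2 to the shaded span, and those beyond 4 Mb after Parp2 are below 0.

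Many genes of the cell cycle were higher in lymphomas, as Parp1, Parp2 and Xrcc1 were, and they were set beside the members. Of 8 genes of S phase, 7 were called higher in Atm-/- lymphomas and 6 in Rag2c/c p53-/- lymphomas against WT, and of 8 genes of G2 and M phase 5 and 3 were. Over all genes, 21% and 17.5% were called higher. Mki67 was at log2 differences of 0.016 and -0.15 (adjusted p = 0.973 and 0.734 in limma), and Pcna, Bub1 and Cenpe were called in neither comparison. The cell-cycle score, the median log2(normalized count + 1) of these 16 genes, was 11.79 to 11.90 in WT thymuses, 12.03 to 12.55 in Atm-/- lymphomas and 12.21 to 12.57 in Rag2c/c p53-/- lymphomas. The score did not overlap between WT and either lymphoma type, so the score and the group cannot be told apart by this design. With the score as a covariate in limma, the difference of Parp1 from WT was 0.13 (95% interval -0.60 to 0.86) for Atm-/- and 0.090 (95% interval -0.61 to 0.79) in Rag2c/c p53-/- lymphomas. Xrcc1 lost both calls, at 0.74 (95% interval 0.22 to 1.27, adjusted p = 0.0699 in limma) and 0.70 (95% interval 0.19 to 1.21, adjusted p = 0.0972 in limma). Parp2 was at 2.02 (adjusted p = 0.0232 in limma) and 0.88 (adjusted p = 0.271 in limma). Polq changed sign, to -0.74 (95% interval -1.49 to 0.0089) and -0.55 (95% interval -1.28 to 0.17). Under this covariate 10.7% and 5.5% of all genes were called against WT, beside 44.6% and 37.3% without it.

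**Figure D4:**
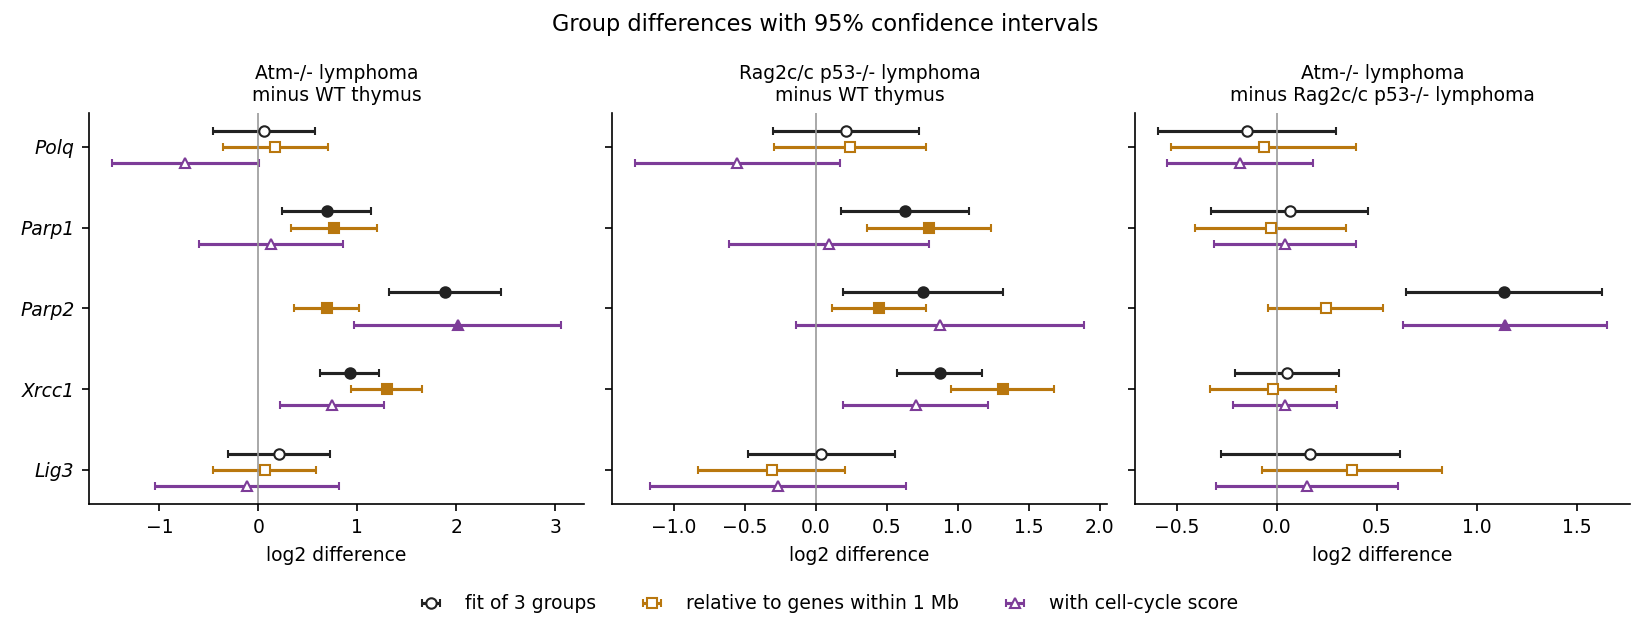
Log2 differences (horizontal axes) of the 5 genes in the 3 comparisons, with 95% confidence intervals from limma. Circles are the fit of 3 groups, squares the level relative to genes within 1 Mb and triangles the fit with the cell-cycle score, and filled symbols have an adjusted p under 0.05. Parp2 moved from 1.89 to 0.69 (Atm-/- against WT) and from 1.13 to 0.24 (Atm-/- against Rag2c/c p53-/-) under the squares, Parp1 and Polq moved most under the triangles against WT, and Xrcc1 stayed above 0 against WT in all.

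The genes whose pattern over the 13 libraries was nearest to each member were found by the root mean square difference of gene-centred log2(normalized count + 1) among 10762 genes with a mean of at least 100. For Parp1 these were Ccnb1 (0.11), the cyclin of mitotic entry, Nup133 (0.13) of the nuclear pore and Tfdp1 (0.14), a partner of E2F factors. Ccnb1 is also a gene of the cell-cycle score, so its nearness and the calls of Parp1 lost with that score are not separate observations. For Polq they were Gxylt1 (0.13), Ddx23 (0.14) and Nup107 (0.15), and for Lig3 5730455P16Rik (0.15), Kif20b (0.16) and Zc3hav1l (0.17). Xrcc1 had the closest matches, Ctnnbl1 (0.087), Impdh2 (0.099) and Emc4 (0.10). The nearest gene to Parp2 was Osgep (0.23), its neighbour on chromosome 14, followed by 1500009L16Rik (0.27) and Atp6v1g2 (0.27). Among the members the nearest pair was Polq and Lig3, at 0.24, with 2.24% of the genes nearer to Polq than Lig3 was. This measure depends on how much a gene varies. Polq and Lig3 varied least about their own means (0.30 and 0.32, beside 0.82 for Parp2). Both were also lowest in the libraries numbered 2, and the part of either in their nearness was not tested. Lig3 and Xrcc1, whose proteins form a complex, were at 0.52, and 43.8% of the genes were nearer to Lig3 than Xrcc1 was.

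Ratios within a library do not depend on its scaling. The log2 ratio of Parp1 to Parp2 was 2.13 ± 0.089 (SD, n = 3) in WT thymus, 0.93 ± 0.63 (SD, n = 5) in Atm-/- lymphomas and 2.003 ± 0.51 (SD, n = 5) in Rag2c/c p53-/- lymphomas. The difference between Atm-/- lymphomas and WT thymus was -1.20 (exact two-sided permutation p = 0.0357, adjusted over 15 tests 0.0893). The log2 ratio of Lig3 to Xrcc1 was 0.36 ± 0.25 (SD, n = 3) in WT thymus and differed from it by -0.72 for Atm-/- lymphomas and -0.83 for Rag2c/c p53-/- lymphomas, with exact two-sided permutation p = 0.0714 for each and 0.107 adjusted. Between Atm-/- and Rag2c/c p53-/- lymphomas the log2 ratio of Parp1 to Parp2 differed by -1.07 (exact permutation p = 0.0317, adjusted 0.0893). The log2 ratio of Lig3 to Lig1, the ligase of replication, differed by -0.84 between Atm-/- lymphomas and WT thymus (exact permutation p = 0.0357, adjusted 0.0893). That of Polq to Parp1 differed by -0.63 in the same comparison (exact permutation p = 0.0357, adjusted 0.0893). The ratio of Polq to Top2a, a gene of dividing cells, separated the lymphoma types without overlap (difference -0.41, exact permutation p = 0.00794, adjusted 0.0893). None of the 15 ratio tests passed after adjustment, where the lowest adjusted p was 0.0893. The smallest exact p possible is 0.0357 for 5 against 3 libraries and 0.00794 for 5 against 5. Adjusted over 15 tests, even ratios without overlap between groups had little room to pass, so no conclusion is drawn from the misses.

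The other genes of single-strand break repair went in both directions. Of 11 partners of PARP1 and XRCC1, 4 were called higher and 2 lower in Atm-/- lymphomas against WT, and 5 higher and 1 lower in Rag2c/c p53-/- lymphomas, with median log2 differences of 0.19 and 0.54. Over all genes, 21% were called higher and 23.6% lower in Atm-/- lymphomas, and 17.5% and 19.7% in Rag2c/c p53-/- lymphomas. Higher in both were Apex1, the neighbour of Parp2 described above, Lig1 (log2 differences 1.05 and 0.80), the flap nuclease gene Fen1 (0.70 and 0.54) and Hpf1 (0.82 and 0.79), whose product directs PARP1 and PARP2 to serine. Adprhl2, whose product removes ADP-ribose from serine, was at 0.19 (adjusted p = 0.378 in limma) in Atm-/- and rose by 0.62 (adjusted p = 0.0126 in limma) in Rag2c/c p53-/- lymphomas. Parp3, a smaller DNA-dependent relative of PARP1, fell (log2 differences -1.92 and -2.64). Aptx, which removes failed ligation products, fell by 0.46 in Atm-/- lymphomas and was at 0.18 in Rag2c/c p53-/- lymphomas (adjusted p = 0.0259 and 0.361 in limma). Polb, which fills the gap, was at -0.37 in both (adjusted p = 0.146 and 0.159 in limma).

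The PARP family around Parp1 and Parp2 was mostly lower than in WT thymus. Of 14 other family genes, 9 were called lower and 1 higher in Atm-/- lymphomas, and 10 lower and 1 higher in Rag2c/c p53-/- lymphomas, with median log2 differences of -1.24 and -1.56, beside 23.6% and 19.7% of all genes called lower. Parp3, already counted above among the repair partners, is one of these 14. Parp16, a family member of the endoplasmic reticulum, was the gene that rose (log2 differences 2.15 and 1.84). Parp8 fell (-4.77 and -3.53), from a mean normalized count of 881 in WT thymus to 35.8 and 88.2. Tiparp (-2.90 and -2.07), Parp4 (-2.41 and -1.88), Parp14 (-2.04 and -2.65), an interferon-responsive member, and Parp9 (-1.38 and -1.62), the partner of DTX3L, fell as well. Tnks, one of the tankyrases, was at -1.69 and -1.51 (adjusted p = 0.0697 and 0.113 in limma). With any 1 library left out, 8 to 10 of the 14 were lower in Atm-/- lymphomas and 8 to 12 in Rag2c/c p53-/- lymphomas. With the cell-cycle score 6 and 5 were, where 10.7% and 5.5% of all genes were called in either direction. With that score the call of Parp16 was lost in both (log2 differences 1.42 and 1.14, adjusted p = 0.0632 and 0.137 in limma).

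**Figure D5:**
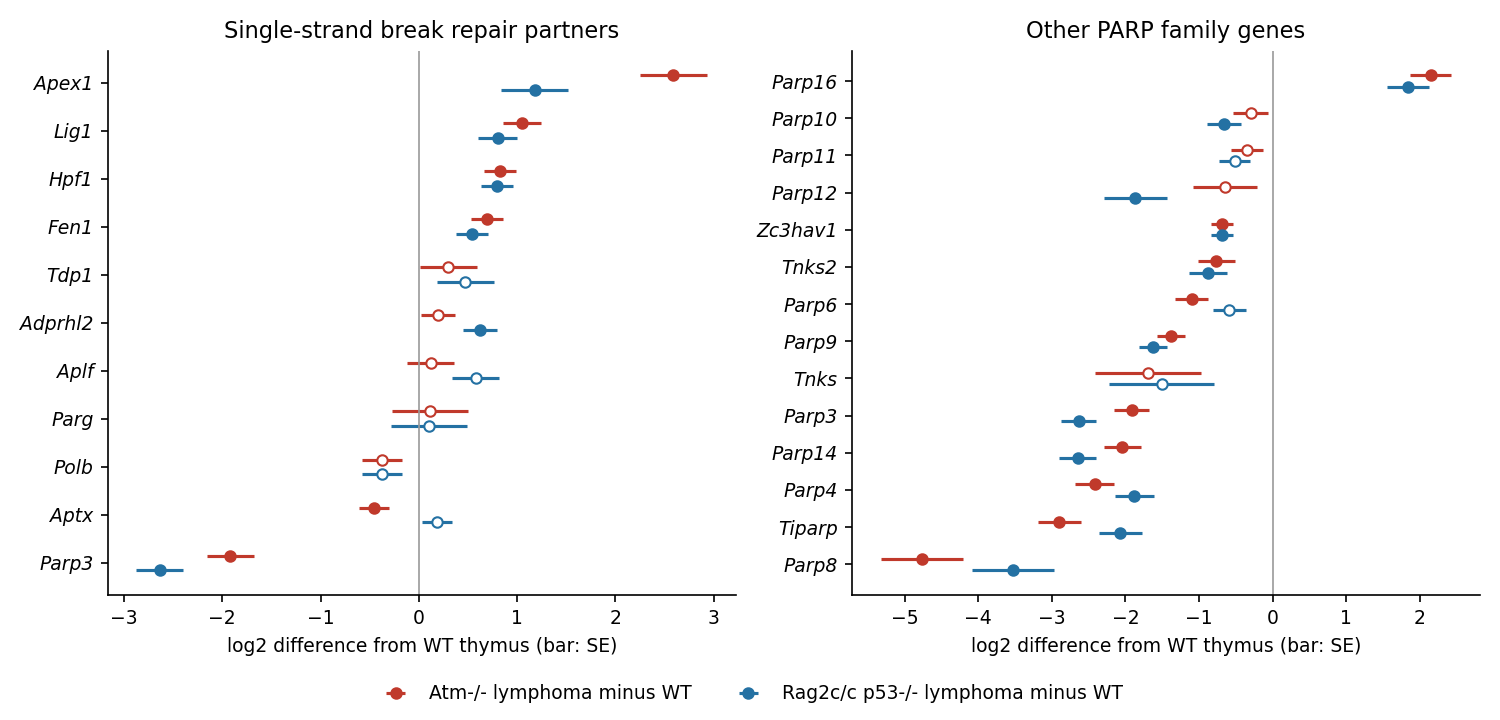
Log2 differences from WT thymus with SE (horizontal axes) for 11 genes of single-strand break repair (left) and 14 other PARP family genes (right) in Atm-/- (red) and Rag2c/c p53-/- (blue) lymphomas. Filled points have an adjusted p under 0.05 in limma. Most PARP family genes lie below 0, with Parp16 above it, and the repair partners lie on both sides.

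The genes that prepare ends for polymerase theta and those of the classical pathway were mixed. Of 10 genes of end resection and flap removal, 3 were called higher and 1 lower in each comparison with WT. Over all genes, 21% were called higher and 23.6% lower in Atm-/- lymphomas against WT, and 17.5% and 19.7% in Rag2c/c p53-/- lymphomas. The counts of these short lists are a description. Nbn (log2 differences 0.80 and 1.05), Exo1 (0.80 and 0.85) and Dna2 (0.77 and 0.90) rose and Ercc4, a flap endonuclease subunit, fell (-0.49 and -0.76). Rbbp8, which encodes the resection factor CtIP, was at -0.052 and 0.42 (adjusted p = 0.888 and 0.223 in limma). Of 10 genes of classical end joining, 2 were higher and 3 lower in Atm-/- lymphomas, and 1 higher and 2 lower in Rag2c/c p53-/- lymphomas. Xrcc6, which encodes Ku70, rose (1.3 and 1.16), and Prkdc, the DNA-dependent protein kinase, fell (-1.35 and -1.21). Xrcc5, the other Ku gene of the list, rose by 0.71 (adjusted p = 0.00924 in limma) in Atm-/- lymphomas. It was at -0.055 (adjusted p = 0.841 in limma) in Rag2c/c p53-/- lymphomas. Lig4, the ligase of that pathway, was at -0.49 and -0.34 (adjusted p = 0.131 and 0.311 in limma). Dclre1c, which encodes Artemis, fell by 1.82 in Atm-/- lymphomas and was at -0.998 (adjusted p = 0.0732 in limma) in Rag2c/c p53-/- lymphomas. Of 10 related polymerases and helicases, 1 was called higher and 2 lower in Atm-/- lymphomas, and 2 higher and 3 lower in Rag2c/c p53-/- lymphomas. This list shares Poll and Polm with the classical list and Polb with the list of single-strand break repair. Helq, a helicase related to Polq, was at 0.32 (adjusted p = 0.112 in limma) and 0.45 (adjusted p = 0.0367 in limma). Rev3l, the catalytic subunit of polymerase zeta, fell (-1.42 and -1.56).

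Facts of the whole series bear on these values. Atm was at 1559 to 2274 normalized counts in WT thymuses and at 208 to 732 in Atm-/- lymphomas, where it was lower (log2 difference -2.06, adjusted p = 0.0017 in limma). It was also lower in Rag2c/c p53-/- lymphomas (439 to 1315, log2 difference -1.16, adjusted p = 0.0441 in limma), the ranges of the lymphoma types overlapped, and no difference between them was called (adjusted p = 0.135 in limma). Rag2 was lower than in WT thymus in both lymphoma types (log2 differences -4.04 and -3.22, adjusted p = 0.000624 and 0.0036 in limma). Trp53 was at 4387 to 6341 in WT thymuses, 6853 to 11318 in Atm-/- lymphomas and 2018 to 5461 in Rag2c/c p53-/- lymphomas. It was called higher in Atm-/- lymphomas than in WT (log2 difference 0.81, adjusted p = 0.0342 in limma) and than in Rag2c/c p53-/- lymphomas (1.38, adjusted p = 0.00328 in limma). Values per gene do not show which exons are left, so Trp53 does not check its label. The sums of 8 markers of the T lineage overlapped between groups (100160 to 159256 in WT, 66663 to 132447 in Atm-/- and 77533 to 145687 in Rag2c/c p53-/- libraries), and 3 of 5 lymphomas of each genotype were below the lowest WT sum. Cd8a alone was called lower, in Atm-/- lymphomas, and Cd4 ranged from 1201 to 17284 and Ptcra from 143 to 8050 among them. The sum of 6 fibroblast markers was 204 to 218 in WT, 3783 to 18172 in Atm-/- and 642 to 2336 in Rag2c/c p53-/- libraries, with 5 and 4 of the 6 called higher, and none at 0. The sum of 6 myeloid markers was 3359 to 3709, 6330 to 10806 and 3688 to 7684, with 4 and 2 of the 6 called higher. Markers of B cells were lower (sums of 1446 to 1770, 103 to 272 and 92 to 506, with 5 and 6 of 6 called lower), and of 6 thymic epithelium markers 4 were lower in each (sums of 725 to 1058, 189 to 609 and 287 to 1320), with Psmb11 at 0 in every Atm-/- lymphoma. Sums of erythroid markers overlapped (1109 to 2408, 934 to 6939 and 838 to 4762), as did those of endothelium markers (3609 to 3721, 3194 to 6189 and 1830 to 5255). Pecam1 made up most of the endothelium sums, with means of 3594, 4991 and 3962. Of the 3 tested endothelium markers, 2 were called lower in Rag2c/c p53-/- lymphomas, Cdh5 and Kdr, and the median log2 differences were -1.41 and -2.55. Some of these marker levels differed between the groups, and the part of such cells in the members' differences was not tested. In bulk RNA fewer cells of a type and less RNA per cell cannot be told apart.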

How the data were processed

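RNA from single-cell suspensions had been made into stranded mRNA libraries (TruSeq) and sequenced. Per the labels, the authors used bcl2fastq 1.8.3, STAR 2.4.0g1 with GRCm38, Picard and DESeq2 1.6.3. The read counter, its strand setting and the annotation release are not given in the sources used here. The deposited values are treated as a score, normalized counts that the authors rounded to whole numbers, so tests for raw counts were not used. The table also holds the authors' group means, fold changes, p-values and dispersions for each lymphoma type against WT, which were not used.

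Groups came from the genotype labels. Values were tested as log2(value + 1) with limma 3.58.1 in R 4.3.3 (trend, robust, all 13 libraries in 3 groups) and adjusted over the 15872 genes with at least 10 in at least 3 libraries. Single values were given exact two-sided permutation tests. The fit was tested on simulated data. Reads were estimated in Python 3.11.15 from the frequencies of low values, searching steps from 0.55 normalized counts per read, and counting errors cover counting alone. The limma p-values set a difference against the spread between libraries of different mice, pooled over the 3 groups and moderated. The permutation p-values come from exchanging the group labels of libraries. Exon lengths came from GENCODE vM21 and promoters from RefSeq. Genes named are the members, genes of the pathway lists, the 3 nearest patterns per member and overlapping genes. From the lists, genes that passed with a log2 difference of at least 1 were to be named. Polm, Poln, Parp6, Parp12, Cdc6, Cdc45 and Aurka also passed, and their values are not given. Other list genes and the neighbours of Parp2 were chosen after their values were seen. A further gene of the list of single-strand break repair is not reported here. The members and lists were chosen with earlier results of these data known. Alternatives covered scaling, pseudocount, filter, threshold, groups fitted, moderation, a cell-cycle covariate, neighbours, each library left out, and 3 libraries with the fewest genes left out together.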

Additional observations from a re-analysis of the deposited data

Results flagged for a closer look

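Among 20 groups of 5 lymphomas checked, 10 for the members and 10 for the ratios, 2 had a library that stood far from the others by Dixon's criterion, where chance gives about 1 in 20. Polq in Atm-/- lymphoma 2 was at 365 normalized counts, with the next lymphoma at 673, and that library had the fewest reads and genes above 0 of its group's libraries with a depth estimate. Parp2 in Rag2c/c p53-/- lymphoma 5 was at 3180, with the next lymphoma at 1760, and that library also had the highest neighbours of Parp2 in its group.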

How the results depend on the processing

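No paired analysis was possible because the labels give the groups no shared replicate numbers. The differences of the members were computed under 12 other settings and with each of the 13 libraries left out. Recomputed size factors, equal column totals, pseudocounts of 0.5 and 10, the other filters and fits of only the groups compared changed no call of a member. When a log2 difference of at least 1 was also required, 1 member was called in Atm-/- lymphomas against WT and 0 in Rag2c/c p53-/- lymphomas. Xrcc1 (0.92 and 0.87) and Parp1 (0.69 and 0.63) then missed the call in both comparisons with WT, and Parp2 (0.75) missed it in Rag2c/c p53-/- lymphomas. Without trend and robust moderation 1 member was called in Rag2c/c p53-/- lymphomas, with Parp1 at 0.63 (adjusted p = 0.0506 in limma) and Parp2 at 0.75 (adjusted p = 0.0557 in limma). With the cell-cycle score, 1 member (Parp2) was called in Atm-/- lymphomas and 0 in Rag2c/c p53-/- lymphomas against WT. Polq then stood at -0.74 and -0.55, Lig3 at -0.12 and -0.27, Xrcc1 at 0.74 and 0.70, Parp1 at 0.13 and 0.090, and Parp2 at 0.88 in Rag2c/c p53-/- lymphomas. Relative to neighbours, Lig3 was at -0.31 in Rag2c/c p53-/- lymphomas against WT. Between the lymphoma types Xrcc1 was at -0.020, Parp1 at -0.031 and Parp2 at 0.24, and 0 members were called. Without the library with the fewest genes above 0 of each group, Parp2 in Rag2c/c p53-/- lymphomas was at 0.74 (adjusted p = 0.122 in limma) and no other call of a member changed. The causes were not tested.

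With each library left out in turn, 1 to 3 members were called in Rag2c/c p53-/- lymphomas against WT, the 1 being Xrcc1 without any WT thymus or without Rag2c/c p53-/- lymphoma 5. In that comparison log2 differences ranged from 0.56 to 0.77 for Parp1, 0.57 to 0.85 for Parp2 and -0.088 to 0.14 for Lig3. Against WT, Atm-/- lymphomas gave 0.62 to 0.83 for Parp1 and -0.042 to 0.26 for Polq. Between the lymphoma types the ranges were -0.25 to 0.048 for Polq, -0.077 to 0.20 for Parp1 and -0.0097 to 0.11 for Xrcc1. Ratio differences between the lymphoma types ranged from -0.030 to 0.28 for Lig3 to Xrcc1 and -0.22 to 0.094 for Lig3 to Lig1. For Rag2c/c p53-/- lymphomas against WT they ranged from -0.29 to 0.0087 for Parp1 to Parp2 and -0.22 to 0.052 for Polq to Top2a. Each of these small differences that turned sign had missed the call. With 3 thymuses, the 95% intervals of Polq and Lig3 in Atm-/- lymphomas reach up to 1.49-fold and 1.65-fold, so rises up to these sizes are compatible with the data.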
